A study of Homo sapiens with 6 samples.

Results

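The MiT/TFE lysosomal transcription factors are the 4 related genes TFEB, TFE3, MITF and TFEC, and they were examined together with ZKSCAN3, a zinc finger gene described as a repressor of the same programme. The 5 genes were chosen by name and are 5 of the 57773 genes in the count table. RNA was sequenced from HEK293 cells, a human line derived from embryonic kidney, in 6 libraries. Cells received a Cas9 and puromycin resistance plasmid (PX459) without a guide (EV), with 4 guides against ZNF146 (sgZNF146) or with 4 guides against ZNF507 (sgZNF507), and each group has 2 libraries labelled as biological duplicates. All groups, the control included, carried Cas9, 36 h of puromycin selection and outgrowth to 2 weeks, and the guide-treated cells were transfected populations rather than clones. ZNF146 and ZNF507 are zinc finger proteins that bind LINE-1 sequences, and the comparison of each group with EV asks what changes in RNA when each is disrupted.

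MiT/TFE proteins are basic helix-loop-helix leucine zipper factors that bind DNA as dimers, with one another or with themselves. They recognise the palindromic E-box CACGTG and, most strongly where a T precedes it, the longer form TCACGTG that recurs in promoters of lysosomal genes and defines the CLEAR network (coordinated lysosomal expression and regulation). A related site, the M-box TCATGTG, is known from pigment genes controlled by MITF. Under nutrient supply the kinase mTORC1 phosphorylates TFEB, TFE3 and MITF at the lysosomal surface and holds them in the cytoplasm, so their activity is set largely by where the protein sits and can change without any change in RNA. RNA counts measure the latter only.

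TFEB (ENSG00000112561) is found on chromosome 6 of GRCh37, minus strand, from 41651716 to 41703997, and TFE3 (ENSG00000068323) on the minus strand of chromosome X from 48886237 to 48900936. MITF (ENSG00000187098) spans chromosome 3 from 69788607 to 70017487 on the plus strand, and TFEC (ENSG00000105967) chromosome 7 from 115575202 to 115799950 on the minus strand. ZKSCAN3 (ENSG00000189298) lies on chromosome 6 from 28317724 to 28336949 on the plus strand. Gene counts add up all transcripts of a gene, so the many start sites of MITF, with 20 annotated transcripts, and of TFEB, with 19, were not separated. TFEB shares 115 exon bases with the antisense lncRNA ENSG00000231102, and reads of both cannot be told apart there unless the counting used strand, which is not given in the sources used here. ZKSCAN3 overlaps ZSCAN31 on the opposite strand with 0 shared exon bases. Its close relative ZKSCAN4 was counted between 231 and 327 times per library, and reads common to both genes may have been split between them.

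Promoter windows from RefSeq (GRCh38.p14, 250 bases before to 50 bases after each annotated start) show the sites that these factors read. The sequences below were chosen to set the factors' own promoters beside those of the 10 CLEAR genes with a window that were called higher in sgZNF507, GLA included, whose window has no such site. The letters CACGTG are in capitals, all sequences run 5′ to 3′ on the strand of the gene, and each stretch spans all the matches in its window with 12 flanking bases. LAMP1 is a heavily glycosylated protein of the lysosomal membrane, CTSA the lumenal protective protein cathepsin A, CLCN7 the lysosomal chloride-proton exchanger, NAGPA and GNPTG enzymes of the mannose 6-phosphate tag, SUMF1 the activator of sulfatases, IGF2R the cation-independent mannose 6-phosphate receptor, VPS11 a tethering subunit ATP6V0D1 a subunit of the proton pump and GLA the lumenal alpha-galactosidase.
LAMP1, chr13:113297035-113297255 (plus): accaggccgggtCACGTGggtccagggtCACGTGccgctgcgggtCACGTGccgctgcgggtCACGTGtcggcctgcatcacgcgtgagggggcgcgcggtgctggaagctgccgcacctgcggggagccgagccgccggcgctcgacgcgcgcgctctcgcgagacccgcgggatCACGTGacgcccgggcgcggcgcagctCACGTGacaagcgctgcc
IGF2R, chr6:159968938-159969071 (plus): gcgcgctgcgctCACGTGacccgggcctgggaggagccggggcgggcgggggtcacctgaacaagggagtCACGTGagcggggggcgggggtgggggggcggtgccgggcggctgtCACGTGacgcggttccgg
CLCN7, chr16:1475038-1475087 (minus): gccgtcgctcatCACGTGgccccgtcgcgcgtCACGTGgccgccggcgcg
CTSA, chr20:45891281-45891327 (plus): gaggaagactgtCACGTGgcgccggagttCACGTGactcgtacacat
VPS11, chr11:119067750-119067801 (plus): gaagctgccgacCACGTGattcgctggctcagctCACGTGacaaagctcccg
GNPTG, chr16:1351907-1351952 (plus): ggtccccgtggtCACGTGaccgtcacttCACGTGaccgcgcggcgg
NAGPA, chr16:5033938-5033967 (minus): tgggacttgagtCACGTGaggcgagcccac
SUMF1, chr3:4467265-4467294 (minus): ggagggctcagcCACGTGaccaaccgggtc
ATP6V0D1, chr16:67481199-67481228 (minus): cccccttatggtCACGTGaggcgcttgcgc
GLA, chrX:101407926-101408005 (minus), the 80 bases before its start: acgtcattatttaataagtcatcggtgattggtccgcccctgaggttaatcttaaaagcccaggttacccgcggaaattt

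LAMP1 holds 6 copies within its window and IGF2R holds 3, while NAGPA, SUMF1 and ATP6V0D1 hold 1 each and GLA holds 0. None of the windows of the 5 factors contains the E-box, its longer form or the M-box on either strand, so a stretch of 80 bases before a start is shown for the 3 most abundant of them. The absence says only that these letters are not in the windows.
TFE3, chrX:49043358-49043437 (minus): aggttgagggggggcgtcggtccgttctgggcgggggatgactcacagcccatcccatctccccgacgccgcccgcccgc
ZKSCAN3, chr6:28349867-28349946 (plus): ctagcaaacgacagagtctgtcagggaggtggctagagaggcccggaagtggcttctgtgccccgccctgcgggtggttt
MITF, chr3:69739384-69739463 (plus), the first of its windows: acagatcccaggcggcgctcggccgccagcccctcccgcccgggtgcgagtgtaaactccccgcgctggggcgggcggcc

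Library totals ranged from 22724439 to 28524025 counts, and 22010 genes passed the filter on low counts. Levels below are counts per TMM-adjusted library size (CPM), given with the SD over 2 libraries, which is itself imprecise. ZNF507 was lower in sgZNF507 than in EV by 0.62 on the log2 scale (log2 fold change -0.62, SE 0.07, adjusted p = 0.00195; adjusted p-values here are those of edgeR after the Benjamini-Hochberg correction). Mean ZNF146 in sgZNF146 was 101 CPM against 110 CPM in EV, a log2 difference of -0.13 (SE 0.08, edgeR adjusted p = 1.00), and it was lower still in sgZNF507, at 94.9 CPM (log2 fold change -0.21 against EV, unadjusted p = 0.0162, edgeR adjusted p = 1.00). RNA level thus gave no check of the sgZNF146 label, and edits at the DNA were not analysed here. The study itself reported, by western blot, that both proteins were essentially undetectable in the targeted cells. It also reported frequent insertions or deletions at the guide sites in the RNA reads, unlike in control cells. Of the markers listed for HEK293 cells, 6 were measured and all 6 exceeded 1 CPM, with summed levels of 1386 to 1569 CPM per library. The summed markers of melanocytes, where MITF is the defining factor, reached 4.27 to 6.42 CPM, with TYR, TYRP1 and SOX10 at or near 0. Those of macrophages and osteoclasts, where TFEC and MITF act, reached 3.78 to 5.33 CPM. Fibroblast markers summed to 61.3 to 65.3 CPM in the EV and sgZNF146 libraries and to 68.7 and 74.9 CPM in those of sgZNF507. That sum is nearly all COL1A1, which was not called (log2 fold change 0.18 in sgZNF507 against EV, edgeR adjusted p = 1.00), while COL1A2, DCN and LUM averaged under 1 CPM, and the part of such cells in the results below was not tested.

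TFE3 was by far the most abundant of the family. TFE3 is the broadly expressed member and carries out much of the lysosomal response in cells with little TFEB. It was counted 1494 and 1551 times in EV, 1451 and 1437 times in sgZNF146, and 1464 and 1642 times in sgZNF507. The normalized levels were 60.0 and 56.1 CPM in EV, 57.2 and 57.1 CPM in sgZNF146, and 63.5 and 56.7 CPM in sgZNF507. The sgZNF507 libraries lie on both sides of the higher EV library, and the groups overlap. In edgeR the log2 fold change of sgZNF507 against EV was 0.05 (95% interval -0.12 to 0.22, adjusted p = 1.00), and that of sgZNF146 against EV was -0.02 (-0.19 to 0.15, adjusted p = 1.00). For TFE3 the intervals thus reach from 0.919 to 1.16 times the EV level in sgZNF507 and from 0.874 to 1.11 times in sgZNF146.

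TFEB, the member best known as a regulator of lysosome formation and autophagy, was counted 213 and 206 times in EV, 191 and 239 times in sgZNF146, and 275 and 254 times in sgZNF507. These counts correspond to 8.56 and 7.45 CPM in EV, 7.53 and 9.50 CPM in sgZNF146, and 11.9 and 8.77 CPM in sgZNF507. Both sgZNF507 libraries were above both EV libraries, but the lower of them was close to the higher EV library and below 1 of the sgZNF146 libraries. Among all tested genes, 14% had both sgZNF507 libraries above both EV libraries, so the order alone is common. The log2 fold change in sgZNF507 against EV was 0.36 (SE 0.17, 95% interval -0.006 to 0.73, unadjusted p = 0.0531, adjusted p = 1.00 in edgeR), or 1.29 times the EV level with an interval of 0.996 to 1.66. Without sgZNF507 replicate 1 the log2 value was 0.13, and without EV replicate 1 it was 0.47. In sgZNF146 against EV the log2 fold change of TFEB was 0.09 (95% interval -0.29 to 0.47, edgeR adjusted p = 1.00), and in sgZNF507 against sgZNF146 it was 0.27 (-0.10 to 0.64, edgeR adjusted p = 1.00). TFEB is thus the member with the largest difference in sgZNF507, and that difference did not pass the test.

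MITF, which directs the melanocyte lineage and has other isoforms in many tissues, was counted 266 and 299 times in EV, 271 and 277 times in sgZNF146, and 218 and 345 times in sgZNF507. It reached 10.7 and 10.8 CPM in EV, 10.7 and 11.0 CPM in sgZNF146, and 9.46 and 11.9 CPM in sgZNF507. The sgZNF507 libraries enclose the values of all other libraries, the lower and the higher level both being theirs. The log2 fold change was -0.0027 in sgZNF507 against EV (95% interval -0.29 to 0.29, edgeR adjusted p = 1.00) and 0.01 in sgZNF146 against EV (-0.28 to 0.30, edgeR adjusted p = 1.00). Replicate 1 of sgZNF507 thus had the lowest MITF and the highest TFEB of the 6 libraries.

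TFEC, a member largely restricted to cells of the macrophage line, was almost absent. It was counted 0 and 1 times in EV, 0 and 1 times in sgZNF146, and 1 and 1 times in sgZNF507, 4 counts in all. A library with a count of 0 allows up to 3 counts, or 0.120 CPM in the first EV library and 0.118 CPM in the first sgZNF146 library. TFEC did not pass the filter and was not tested, and at this depth a difference between groups was not detectable.

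ZKSCAN3, whose product was described as a counterpart of TFEB that represses lysosomal and autophagy genes, was counted 541 and 603 times in EV, 503 and 540 times in sgZNF146, and 509 and 661 times in sgZNF507. Its levels were 21.7 and 21.8 CPM in EV, 19.8 and 21.5 CPM in sgZNF146, and 22.1 and 22.8 CPM in sgZNF507. The groups do not overlap, with sgZNF146 lowest and sgZNF507 highest, and neighbouring libraries of different groups are less than 1 CPM apart. Such separation is common, as 14.6% of all tested genes had both sgZNF146 libraries below both EV libraries, and 15.5% had both sgZNF507 libraries above both sgZNF146 libraries. The log2 fold change was 0.05 in sgZNF507 against EV (95% interval -0.16 to 0.25), -0.08 in sgZNF146 against EV (-0.28 to 0.13) and 0.12 in sgZNF507 against sgZNF146 (-0.08 to 0.33), each with an edgeR adjusted p of 1.00.

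**Figure D1:**
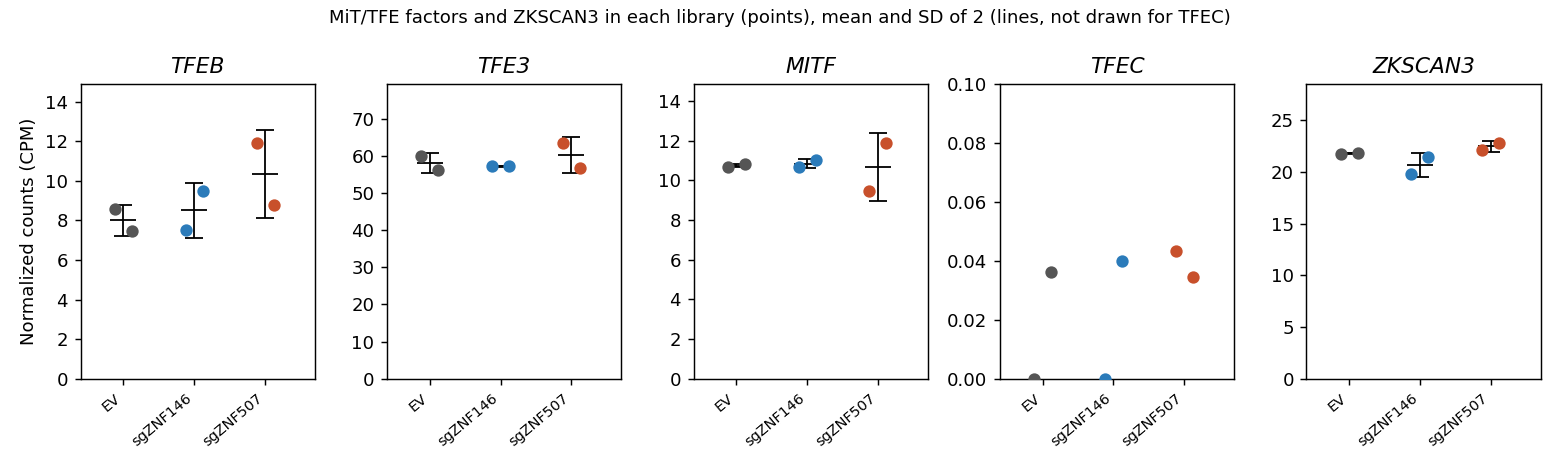
Normalized counts (CPM, linear axes from 0, a scale of its own for each gene) of the 5 genes in the EV, sgZNF146 and sgZNF507 libraries; points are libraries and lines give the mean and SD of 2, which are not drawn for TFEC. TFE3 lies near 58.4 CPM in all groups, the TFEB points of sgZNF507 are 11.9 and 8.77 CPM, and TFEC never exceeds 1 count.

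**Figure D2:**
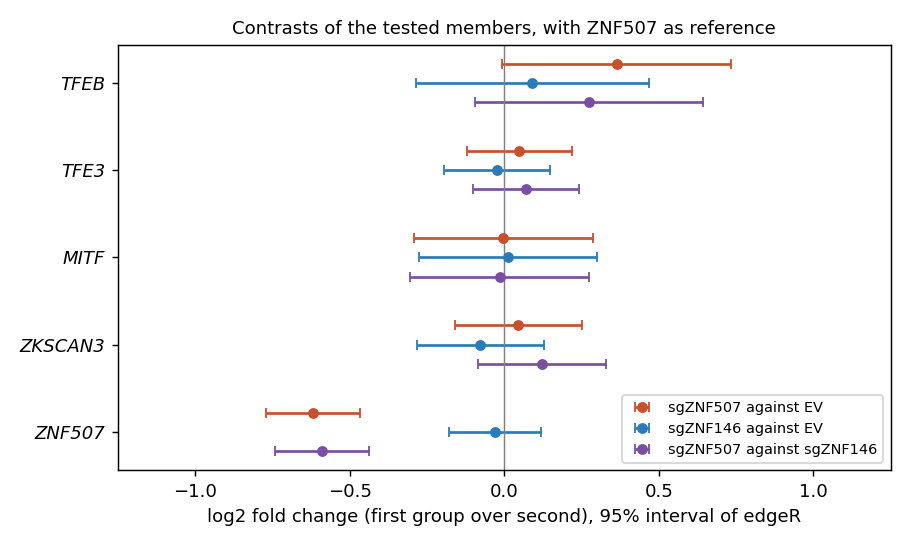
Log2 fold changes (points) with 95% intervals (bars) of the 4 tested genes and, for reference, of the targeted gene ZNF507 in 3 comparisons. The 12 intervals of the factors include 0, while those of ZNF507 lie below 0 in both comparisons that involve its guides.

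None of the 4 tested members was called (adjusted p under 0.05) in any of the 3 comparisons. Over all genes tested, 0.182% were called in sgZNF507 against EV, 0% in sgZNF146 against EV and 0.173% in sgZNF507 against sgZNF146. In a fit with the replicate as a block, these shares were 0.55%, 0.15% and 0.891%, and again no member was called. In sgZNF146 against EV, 535 genes had an unadjusted p under 0.05 in edgeR with 0 called, and DESeq2 also called 0. Across 15 other settings of the analysis, no member was called in any comparison, although DESeq2 with the replicate block gave no adjusted p for the 4 genes in sgZNF146 against EV. An exact permutation of 2 libraries against 2 cannot give a p under 0.05, so single genes were tested only in the fit across all genes. In bulk RNA, fewer cells with a transcript and less of it per cell cannot be told apart.

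Compared per length, the order of levels was TFE3, ZKSCAN3, MITF, TFEB and TFEC in EV and sgZNF146. Per kilobase of annotated exon, TFE3 had 13.8 ± 0.658 CPM (SD, n = 2) in EV, 13.6 ± 0.00991 CPM in sgZNF146 and 14.3 ± 1.15 CPM in sgZNF507. ZKSCAN3 followed with 4.53 ± 0.0116 CPM per kilobase in EV, 4.30 ± 0.242 in sgZNF146 and 4.67 ± 0.107 in sgZNF507. MITF and TFEB were close to each other, at 1.45 ± 0.0124 and 1.19 ± 0.116 CPM per kilobase in EV and at 1.44 ± 0.233 and 1.54 ± 0.333 in sgZNF507, where their libraries overlap. With the length of the longest transcript in place of all exons, the MITF and TFEB libraries overlap in every group, so the order of this pair is not resolved. As a share of the summed length-scaled level of the 4 family members, TFE3 made up 82.2% to 84.2% across the 6 libraries, TFEB 6.93% to 9.78% and MITF 7.02% to 9.80%. TFEC made up at most 0.0279%. With the longest transcript the share of TFE3 was 77.8% to 80.1%, so TFE3 remained the main transcript of the family in HEK293 cells under both lengths.

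The genes whose log2 CPM followed a member most closely over the 6 libraries were listed as a description, out of 11300 protein-coding genes with a mean of at least 5 CPM. For TFEB they were CSTPP1 (Pearson r = 0.978) and NKX3-2 (r = 0.973), and for TFE3 USP42 (r = 0.997) and ACTR1A (r = 0.996). For MITF they were CHD9 (r = 0.993) and GULP1 (r = 0.990), and for ZKSCAN3 ZNF282 (r = 0.986) and COL9A2 (r = 0.983). The points are the same 6 libraries with their shared groups and replicate numbers. With so few libraries, between 14 genes (TFEB) and 81 genes (TFE3) exceeded r = 0.95. The range of log2 CPM being followed was 0.18 for TFE3, 0.20 for ZKSCAN3, 0.33 for MITF and 0.67 for TFEB.

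Proteins that hold MiT/TFE factors in the cytoplasm, or release them, form the next group. None of the 46 genes listed for this control, all of which were tested, was called in any of the 3 comparisons. Their median log2 fold change was -0.02 in sgZNF507 against EV and -0.01 in sgZNF146 against EV, beside -0.0032 and -0.0013 over all genes tested. The most abundant were YWHAE, YWHAZ and YWHAQ, whose products bind phosphorylated TFEB in the cytoplasm, and MTOR, the kinase itself. Their log2 fold changes in sgZNF507 against EV were -0.12 (SE 0.06) for YWHAE, -0.07 (SE 0.07) for YWHAZ, -0.10 (SE 0.06) for YWHAQ and 0.01 (SE 0.06) for MTOR. The 10 Rag and Ragulator genes, which recruit TFEB to the lysosome, had a median of 0.03, with 6 above 0 and 4 below. The 3 genes of the folliculin complex, which acts on the Rag GTPases for TFEB and TFE3, had a median of -0.02. In sgZNF507 against EV, 4 of the 46 genes had an unadjusted p under 0.05 in edgeR, beside 3.39% of all genes tested. Rag and Ragulator genes made up 2 of these 4. MCOLN1, the lysosomal calcium channel that activates the phosphatase calcineurin upstream of TFEB and is itself a CLEAR gene, is named because its call depended on the fit, which was seen first. It measured 24.2 and 31.2 CPM in EV, 26.0 and 27.2 CPM in sgZNF146, and 18.1 and 21.8 CPM in sgZNF507. The sgZNF507 libraries were the lowest, an order against EV shared by 15.3% of all tested genes, at a log2 fold change of -0.47 (SE 0.13, edgeR adjusted p = 0.715). The adjusted p was 0.000467 with the replicate block in edgeR and 0.0116 in edgeR without a filter, but 0.128 with the block in DESeq2. The log2 value was -0.28 without EV replicate 2 and -0.64 without EV replicate 1.

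Some transcripts are known to be raised by the factors themselves in a feedback loop. The 7 listed genes of this kind (RRAGD, FLCN, FNIP1, FNIP2, GPNMB, PPARGC1A and SESN2) lay at a median of -0.02 (log2 fold change, sgZNF507 against EV), and none was called in any comparison. FLCN, FNIP1 and FNIP2 are also the folliculin complex given above, so the medians of these groups are not separate results. In sgZNF507 against EV 5 of them were below 0 and 2 above, GPNMB at 0.28 and SESN2 at 0.13. RRAGD, the Rag GTPase whose RNA is a sensitive readout of active TFEB, was 28.2 CPM in EV and 25.3 CPM in sgZNF507 on average (log2 fold change -0.16, SE 0.11, edgeR adjusted p = 1.00). PPARGC1A, the coactivator induced by TFEB in starvation, had a log2 fold change of -0.18 (SE 0.16, edgeR adjusted p = 1.00). Of the 7 CLEAR genes of autophagy none was called either, with SQSTM1, the cargo receptor p62, at 0.07 (SE 0.06) and MAP1LC3B, which coats autophagosomes, at 0.22 (SE 0.08, edgeR adjusted p = 1.00).

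Part of the CLEAR network, the lysosomal genes that the factors bind, was called in sgZNF507. Of 73 listed genes, all tested, 12 were called in sgZNF507 against EV, 11 higher and 1 lower, which is 16.4% of the list beside 0.182% of all genes tested. All 12 are among the genes that the study lists as changed in these same libraries, and the CLEAR list was chosen with earlier results known. Neither the share nor its direction is therefore independent evidence. None of the other 61 genes was called in sgZNF507 against EV. Of these 61, 13 had an unadjusted p under 0.05 in edgeR, beside 747 of the 22010 genes tested (3.39%). The median log2 fold change of the 61 was 0.03, with 38 above 0 and 23 below. These 61 come from the same chosen list, so they are not free of that choice. In sgZNF146 against EV none of the 73 was called, and the median was -0.0039. In sgZNF507 against sgZNF146, a comparison that shares the sgZNF507 libraries, 11 were called, all higher. The count in sgZNF507 against EV was 3 without EV replicate 1, 6 without EV replicate 2, 6 without sgZNF507 replicate 1 and 7 when only the 4 libraries compared were fitted. The count in sgZNF507 against sgZNF146 was 4 without either sgZNF146 library or without sgZNF507 replicate 1, and 7 without either EV library. With the replicate block, 17 CLEAR genes were called in sgZNF507 against EV, 13 higher and 4 lower, beside 0.55% of all genes tested. In sgZNF507 against sgZNF146 the block called 19, 14 higher and 5 lower, beside 0.891%. It called none in sgZNF146 against EV, beside 0.15%.

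The group with the highest share was the tagging and sorting of lysosomal enzymes. In it 4 of 5 genes were called, beside 0.182% of all genes tested, and all 4 were higher in sgZNF507 than in EV. All 4 are among the genes that the study lists from these libraries, and the list was chosen with earlier results known. The share is therefore not independent evidence about this role. NAGPA, which uncovers the mannose 6-phosphate tag, was 28.8 and 35.2 CPM in EV, 29.6 and 33.4 CPM in sgZNF146, and 69.9 and 73.4 CPM in sgZNF507. The sgZNF507 libraries lie well above the other 4, which overlap, and the log2 fold change was 1.16 (SE 0.10, edgeR adjusted p = 0.000256). GNPTG, a subunit of the enzyme that builds the tag, was 32.4 ± 1.15 CPM in EV, 32.1 ± 3.53 CPM in sgZNF146 and 56.9 ± 2.89 CPM in sgZNF507 (SD, n = 2 each). SUMF1 had a log2 fold change of 0.83 (SE 0.12, edgeR adjusted p = 0.0181) and IGF2R of 0.41 (SE 0.06, edgeR adjusted p = 0.0237). Of the 4 genes only NAGPA was called without EV replicate 1 and only NAGPA and GNPTG without EV replicate 2, while IGF2R was not called without sgZNF507 replicate 1. Their log2 fold changes stayed above 0 without each library in turn.

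Of the 11 membrane proteins, LAMP1 and CLCN7 were called. LAMP1 was 186 and 196 CPM in EV, 199 and 194 CPM in sgZNF146, and 305 and 287 CPM in sgZNF507. Its sgZNF507 libraries are again apart from all others, with a log2 fold change of 0.63 (SE 0.06, edgeR adjusted p = 0.000568). CLCN7 had a log2 fold change of 0.45 (SE 0.07, edgeR adjusted p = 0.0237). Of 13 V-ATPase subunit genes, which encode the proton pump, ATP6V1H (0.56) and ATP6V0D1 (0.39) were called higher. VPS11 was the 1 of 10 biogenesis and traffic genes called, at 0.65 (SE 0.08, edgeR adjusted p = 0.00260).

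Of 20 hydrolases and lumenal proteins, 3 were called in sgZNF507 against EV, and they did not go the same way. GLA, the alpha-galactosidase, was 85.6 and 74.8 CPM in EV, 92.2 and 97.0 CPM in sgZNF146, and 148 and 132 CPM in sgZNF507, a log2 fold change of 0.80 (SE 0.08, edgeR adjusted p = 0.000568). CTSA had a log2 fold change of 0.48 (SE 0.08, edgeR adjusted p = 0.0266). HEXA, the alpha subunit of beta-hexosaminidase, was 63.4 and 63.8 CPM in EV, 60.3 and 64.0 CPM in sgZNF146, and 44.8 and 48.0 CPM in sgZNF507. HEXA was lower in both sgZNF507 libraries than in any other, with a log2 fold change of -0.45 against EV (SE 0.07, edgeR adjusted p = 0.0266). Without each library in turn its value lay between -0.49 and -0.41. When only the 4 libraries compared were fitted, HEXA, CTSA and IGF2R were not called (edgeR adjusted p = 0.0754 for each). In that fit CLCN7 (edgeR adjusted p = 0.0573) and ATP6V0D1 (edgeR adjusted p = 0.0686) were not called either.

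**Figure D3:**
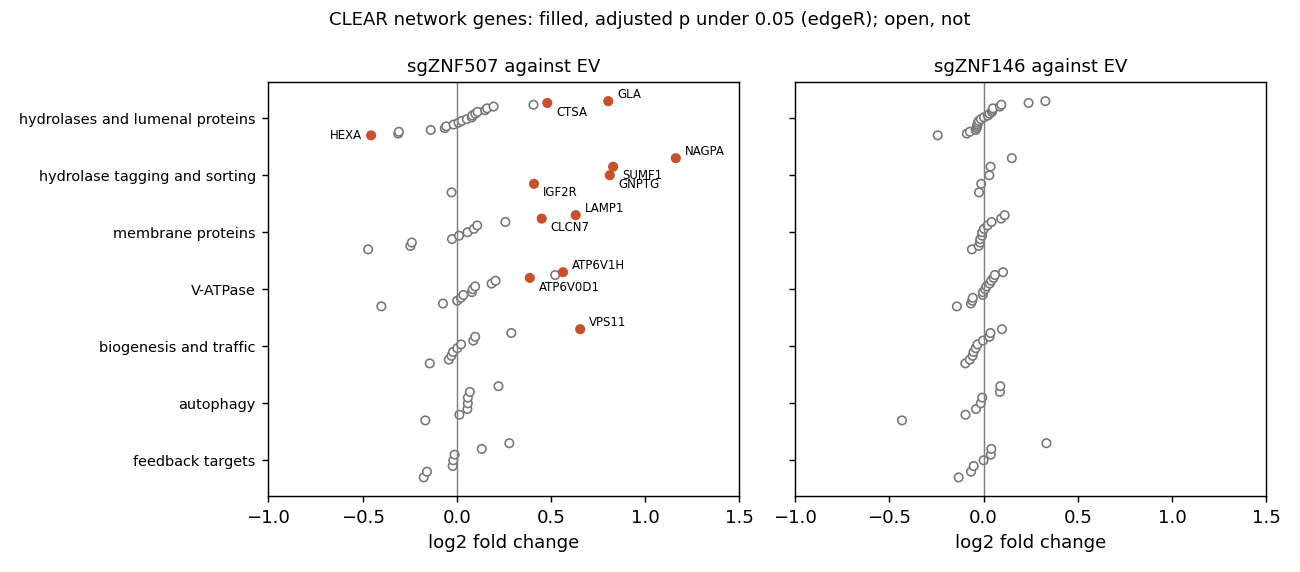
Log2 fold changes of the 73 CLEAR network genes by role (rows) in sgZNF507 against EV (left) and sgZNF146 against EV (right); filled points passed an adjusted p of 0.05 in edgeR and open points did not. The 12 filled points are in the left panel, led by NAGPA at 1.16, and the feedback targets in the bottom row hold none.

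Promoter windows were then read for all protein-coding nuclear genes outside chromosome 8, of which 11793 of the 14221 tested (82.9%) had a window. These shares describe the promoters and carry no test. The longer motif TCACGTG, searched on both strands, was in any window of 6.84% of the tested genes with a window. It was in 3.71% of all 35116 windows. The first share counts genes and the second single windows, so here and below they are unlike measures. Outside chromosome 8, 28 protein-coding nuclear genes were called in sgZNF507 against EV, and 26 of them had a window. Of these 26, 20 (76.9%) held TCACGTG. The E-box CACGTG, which TCACGTG contains, was in 21 of the 26 (80.8%) against 12.2% of tested genes and 7.26% of all windows. TCATGTG, the M-box, was in 11 of the 26 (42.3%) against 2.60% of tested genes and 2.92% of all windows. Letters that MiT/TFE factors are not known for were read beside them. The other E-box CAGCTG was in 6 of the 26 (23.1%) against 22.8% of tested genes, made up of 3 of 21 genes called higher and 3 of 5 called lower. The cAMP response element core GACGTC was in 1 of the 26 (3.85%) against 9.06%.

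The sites were present in called genes of either direction and in genes that are not on the CLEAR list. That list holds 73 chosen genes, so a gene not on it may still belong to the CLEAR network. TCACGTG was in 16 of 21 genes called higher and in 4 of 5 called lower. It was in 9 of the 10 called CLEAR genes with a window, in which GLA was the exception, and in 11 of the 16 called genes not on that list. Of the CLEAR genes that were not called, 18 of 41 held it, but only 71.9% of that set had a window, so this share is void as a property of the set. Of genes called with the replicate block in sgZNF146 against EV, 0 of 19 held the longer form or the M-box. Of the 36 genes with a window on the nutrient control list, 10 (27.8%) held TCACGTG. That list shares RRAGD, FLCN, FNIP1, FNIP2 and MCOLN1 with the CLEAR list, so the shares of these lists are not separate.

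By copies of CACGTG in the window, 5 of 10354 tested genes without a copy were called in sgZNF507 against EV (0.0483%). The share was 0.773% with 1 copy (10 of 1293), 6.56% with 2 copies (8 of 122) and 12.5% with 3 or more (3 of 24). The last of these bins is thin and its share rests on 3 genes. In every bin most genes were not called. The median log2 fold change in sgZNF507 against EV lay near 0 in every bin, from -0.0086 with 1 copy to 0.0107 with 3 or more. The spread was not the same. The lower and upper deciles were -0.157 and 0.155 without a copy and -0.148 and 0.137 with 1 copy. They were -0.163 and 0.265 with 2 copies and -0.356 and 0.371 with 3 or more. The median GC content of the windows was 64.3% without a copy and 67.7% with 3 or more, and its part in these shares was not tested. MCOLN1, lower in sgZNF507 and called in edgeR with the replicate block or without a filter but not with the block in DESeq2, holds 2 copies.
MCOLN1, chr19:7522571-7522627 (plus): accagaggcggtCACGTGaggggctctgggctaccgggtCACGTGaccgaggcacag
ZNF507, the gene targeted by the guides, holds 1 copy at its own start.
ZNF507, chr19:32345597-32345626 (plus): ccacccgcggctCACGTGatccgtccccag

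**Figure D4:**
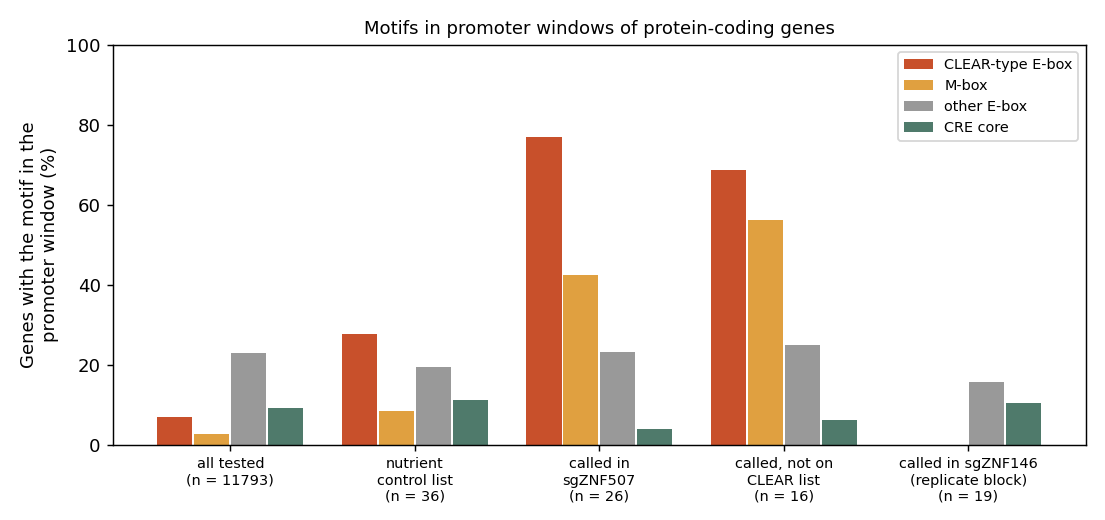
Share (%) of protein-coding genes whose promoter window holds the longer, CLEAR-type E-box, the M-box, the other E-box or the core of the cAMP response element (CRE), for all tested genes, the nutrient control list, genes called in sgZNF507 against EV, those of them not on the CLEAR list, and genes called with the replicate block in sgZNF146 against EV (n, genes with a window). The CLEAR-type E-box reaches 76.9% of the genes called in sgZNF507 beside 6.84% of all tested genes, while the other E-box stays at 23.1% beside 22.8%.

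Other factors of the same structural class were measured as well. None of the 16 listed basic helix-loop-helix leucine zipper factors, all tested, was called in any comparison, and their log2 fold changes in sgZNF507 against EV lay between -0.11 and 0.44. The most abundant were SREBF2, MLXIP, MGA and MXD4, with -0.0015 for MLXIP, 0.04 for MGA, 0.09 for MXD4 and 0.10 for SREBF2. USF2, a ubiquitous binder of CACGTG named here after its value was seen, had a log2 fold change of -0.11 (SE 0.06, edgeR adjusted p = 1.00). For 8 other regulators of autophagy and lysosomal genes, among them FOXK1, FOXK2 and FOXO3, the values lay between -0.13 and 0.10 with none called. The 4 autophagosome genes ULK1, WIPI2, GABARAPL2 and MAP1LC3B, listed as autophagy genes under ZKSCAN3 or the MiT/TFE factors, had a median of 0.05 with none called.

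The relatives of ZKSCAN3 and the pigment programme of MITF were read in the same way. None of the 12 listed genes with a SCAN domain was called, with log2 fold changes in sgZNF507 against EV from -0.08 to 0.16. ZKSCAN8, ZKSCAN1, ZKSCAN2 and ZKSCAN5 were the most abundant, at 94.2, 84.1, 52.6 and 32.9 CPM on average over all libraries. ZKSCAN4, next to ZKSCAN3 in sequence, had 0.10 (SE 0.12, edgeR adjusted p = 1.00). Of the 18 genes listed for MITF in melanocytes, 12 passed the filter and none was called. The highest of them were HIF1A, CDK2, MET and LEF1, which many cell types express, while PMEL and MLANA, the melanosome proteins, were at 2.50 and 1.97 CPM on average.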

How the data were processed

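RNA-seq of 6 HEK293 libraries (2 each of EV, sgZNF146 and sgZNF507) was grouped by the labels. The authors removed ribosomal reads, mapped the rest to hg19 (GRCh37) with TopHat2 and counted them per gene with featureCounts, and the deposited values are raw counts. Symbols came from GENCODE release 44 on GRCh37 (96.1% of identifiers matched), promoters from RefSeq.

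Genes passing filterByExpr (22010) were normalized by TMM and tested with edgeR 4.0.16 (glmQLFit, all 6 libraries) under R 4.3.3, and p-values were adjusted by Benjamini-Hochberg across those genes (threshold 0.05). The study's own tool, DESeq2 (1.42.0), was an alternative, with other normalizations, filters, a replicate block and each library left out. Standard errors are approximate. Steps were tested on simulated data. Log2 CPM for likeness used a prior count of 2.

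Replicate numbers were taken to pair the libraries only in the fits with a replicate block. The main fit has no replicate term, so its p-values do not account for pairing. Deviations from group means correlated across genes at 0.138 (EV and sgZNF146), 0.176 (EV and sgZNF507) and 0.145 (sgZNF146 and sgZNF507). Counting error alone sets the floor of 3 counts for a count of 0. P-values measure the spread between labelled duplicates, estimated in the main fit over all 6 libraries of the 3 groups with information shared across genes.

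Members and lists were chosen with earlier results of these data known. Named are the 5 members, ZNF507 and ZNF146, list genes past the threshold or, where fewer than 4 passed, the most abundant up to 4, and the 2 genes most like each member. MCOLN1, USF2, ZKSCAN4, PMEL, MLANA, COL1A1 and the feedback and autophagy genes described singly were named after their values were seen. LHX1 and NEFL were not analysed here. Single values of 2 other list genes are not reported here, and counts over lists include them.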

Additional observations from a re-analysis of the deposited data

Results flagged for a closer look

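Levels of 11 of the 73 CLEAR genes differed between sgZNF507 and sgZNF146 in the direct comparison of these groups (edgeR, adjusted p under 0.05). That is 15.1% of the list beside 0.173% of all genes tested. Of the 11, 10 are among the genes that the study lists from the same sgZNF507 libraries, so the count is not independent evidence. The log2 differences given here are 1.19 for NAGPA, 0.82 for GNPTG, 0.71 for VPS11, 0.59 for LAMP1, 0.57 for GLA, 0.51 for CTSA and 0.50 for ATP6V1H. They are 0.48 for CLCN7, 0.38 for IGF2R and 0.35 for ATP6V0D1. All 11 were higher in sgZNF507, and none of the MiT/TFE factors or ZKSCAN3 was among them.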

How the results depend on the processing

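In the settings tried, none of the 4 tested factors was called in any comparison. The sign for MITF in sgZNF507 against EV, where the value was within 0.01 of 0, turned to 0.0020 with DESeq2's size factors and with upper quartile scaling, 0.0039 without a filter, 0.00096 with at least 10 counts in every library and 0.00085 in DESeq2. Leaving out each library in turn, MITF ranged from -0.17 to 0.15 in sgZNF507 against EV, -0.011 to 0.034 in sgZNF146 against EV and -0.18 to 0.13 in sgZNF507 against sgZNF146, and TFE3 from -0.036 to 0.14, -0.076 to 0.026 and -0.013 to 0.17. TFEB ranged from 0.13 to 0.59, -0.088 to 0.25 and 0.04 to 0.50. Genes called in sgZNF507 against EV numbered 40, and 101 without a filter, 121 with the replicate block in edgeR and 61 with it in DESeq2. In sgZNF146 against EV they numbered 0, and 19, 33 and 6 under those settings and 3 with 4 libraries. In sgZNF507 against sgZNF146 they numbered 38, and 112, 196 and 75. Without each library in turn these counts were 12 to 44, 0 to 3 and 13 to 37. CLEAR genes called numbered 7 in both comparisons with sgZNF507 when 4 libraries were fitted, 19 with the replicate block in sgZNF507 against sgZNF146, 0 (against EV) and 1 (against sgZNF146) without genes listed by the study, and 3 to 13 (against EV) and 4 to 9 (against sgZNF146) without each library. MCOLN1 was the 1 nutrient control gene called without a filter in sgZNF507 against EV and with the replicate block in edgeR in both comparisons with sgZNF507, while the block in DESeq2 called none of that list (adjusted p of MCOLN1 0.128 and 0.251). The pairing by block changed no call of a factor. The share of called genes with the longer E-box, tried under other fits after the data were seen, was 52.5% with the block in edgeR, 60.5% without a filter and 60.0% to 76.5% without each library. A lone remaining library in a group is assumed to vary like the other groups. Causes of these shifts were not tested. Depth limits TFEC, with 4 counts in all.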
